A study of Mus musculus with 14 samples.

Results

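Bulk liver RNA was compared between mice labelled as injected with lipid droplets (LD) and mice labelled as injected with phosphate-buffered saline (PBS). The 6 libraries, 3 in each group, are the columns of 1 deposited table that carry these labels, out of 14 samples in the series. Both groups are labelled wild type and chow diet, and both received tail-vein injections on 6 consecutive days, so that the labels separate them only by what was injected. The labels give no age, sex, strain or source of the lipid droplets, and they do not say whether replicates came from separate mice. The p-values therefore measure the spread between these libraries, which may be technical. The other 8 samples come from mice fed for 22 weeks on a diet that brings about NASH, a fatty liver with inflammation and scarring. They are 6 bulk libraries labelled wild type (WT) or Ms4a7 knockout (KO), and 1 pool of nuclei from 3 livers of each of those genotypes.

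The table name and the labels disagree. The table whose columns are labelled PBS and LD was named by the submitters for Ms4a7, and the table whose columns are labelled WT and KO was named for LD. All directions below follow the sample labels, and "LD" and "PBS" mean the libraries so labelled.

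Lipid droplets are organelles that store neutral fat under a coat of perilipin and related proteins, and in a fatty liver they can leave dying hepatocytes and be taken up by macrophages. Resident liver macrophages, the Kupffer cells, clear particles from blood. In steatohepatitis, monocyte-derived macrophages that express Trem2 and Gpnmb accumulate beside fat-laden hepatocytes, stellate cells deposit collagen, and ductular cells expand. Hepatocytes of male mice also express a set of genes driven by pulsatile growth hormone, among them the major urinary proteins, which are lost in many kinds of liver injury.

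Ms4a7, which encodes a membrane-spanning protein of macrophages, lies on mouse chromosome 19 from 11321039 to 11336146 on the minus strand (mm10). Its normalized counts were 62.18, 84.73 and 163 in the PBS libraries and 10.5, 7.595 and 9.317 in the LD libraries. Every LD library was below every PBS library, and Ms4a7 was lower in LD by a log2 fold change of -3.26 ± 0.39 (SE; limma, Benjamini-Hochberg adjusted p = 0.00428). The call held whichever of the 6 libraries was left out, with a highest adjusted p of 0.0321. In the table labelled WT and KO, Ms4a7 stood at 19.6 ± 8.67 (SD, n = 3) in the libraries labelled WT and at 118 ± 17.0 (SD, n = 3) in those labelled KO, which goes against the label KO. Fold changes here are on the scale of log2 of the normalized count plus 1, which understates changes of genes with low counts.

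The series design calls the livers of the PBS and LD groups healthy, and the labels give a chow diet. Albumin (Alb) was at 2396665 to 3228897 in the 6 libraries, beside sums of 14646 to 26055 for red blood cell genes and of 1487 to 6760 for adipose and pancreas genes. The genes that mark injured liver were nevertheless present in both groups. Trem2 averaged 310 ± 123 (SD, n = 3) in PBS and 134 ± 15.8 (SD, n = 3) in LD, against 2.08 and 15.3 in the libraries labelled WT and KO on the NASH diet. Col1a1 averaged 8230 ± 1105 in PBS and 4336 ± 325 in LD (SD, n = 3 each), against 143.5 and 175.1 in those same WT and KO libraries. The 2 tables were scaled separately, so these levels are set side by side without a test.

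Each library held 39318264 to 41346464 reads in genes, recovered from the normalized counts, with 23.9% to 26.4% of the reads in the 10 leading genes. The chi-square per degree of freedom, which sets squared differences against counting variance, was 18.3 to 57.3 between replicates of a group. Between libraries of different groups it was 68.6 to 111. The first principal component of all tested genes held 42.2% of the variance and separated the groups. The second held 22% and set LD replicate 3, at -48.47, apart from the other LD libraries at 15.29 and 15.9. Xist was at 6.51 or below and Ddx3y between 1208 and 1546 in the 6 libraries.

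LD replicate 3 stood apart in genes of the circadian clock. Dbp, a clock-output transcription factor, was at 284.4, 351.5 and 3131 in LD replicates 1 to 3 and at 77.22, 239.8 and 1297 in PBS replicates 1 to 3. Arntl, the core activator of the clock, was at 1023, 1030 and 144.9 in LD and at 1101, 736.4 and 380.7 in PBS. Thus LD replicate 3 and PBS replicate 3 had the highest Dbp and the lowest Arntl of their groups. None of the 19 clock genes tested passed in limma (5 had an unadjusted p under 0.05), none passed in edgeR, and 2 were higher in DESeq2. With the replicate number as a block 6 were higher, but whether the numbers pair the libraries is not settled. The labels give no time of collection, and the part of this spread in the results below was not tested. Results that rest on LD replicate 3 or another single library are given with and without it.

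**Figure D1:**
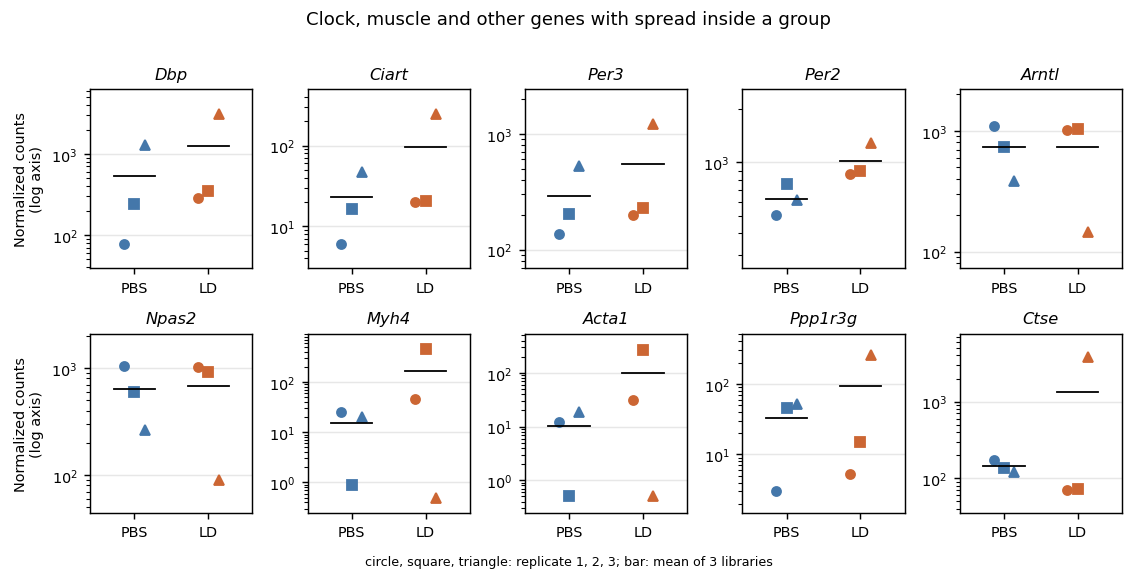
Normalized counts (log axis) of clock, muscle and other genes in the PBS and LD libraries; circles, squares and triangles are replicates 1, 2 and 3, bars are means, and values below 0.5 are drawn at 0.5. LD replicate 3 has the highest Dbp (3131) and the lowest Arntl (144.9), Myh4 (0) and Acta1 (0) of the LD libraries.

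Of 14900 genes tested, 4.16% passed at an adjusted p of 0.05, 1.95% as higher and 2.21% as lower in LD, and the median log2 fold change over all of them was 0.00. Among these genes, 99 were at least 1 log2 unit higher and 156 at least 1 log2 unit lower. How many passed moved with the libraries used, from 135 without PBS replicate 2 to 1205 without LD replicate 3, and 105 genes passed in all 6 fits that left out 1 library. The PBS and LD libraries did not overlap in 25.4% of the tested genes, so that a lack of overlap alone sets no gene apart. No gene that passed with all libraries changed direction in any of those fits. Of the 620 calls with all libraries, 216, 197 and 591 were kept without LD replicates 1, 2 and 3, in that order. Without PBS replicates 1, 2 and 3, 337, 131 and 158 were kept. Numbers kept in single lists below are to be read beside these. Of 51 gene lists, 35 had at least 1 member that passed. With 4.16% of all genes called, a short list with no called member is not set apart from the genes at large. An unadjusted p under 0.05 was common. With 0.5 or 5 added to the counts in place of 1, limma gave it for 2927 or 2963 of the 14900 genes. Counts at that level in single lists, above and below, are to be read beside these.

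**Figure D2:**
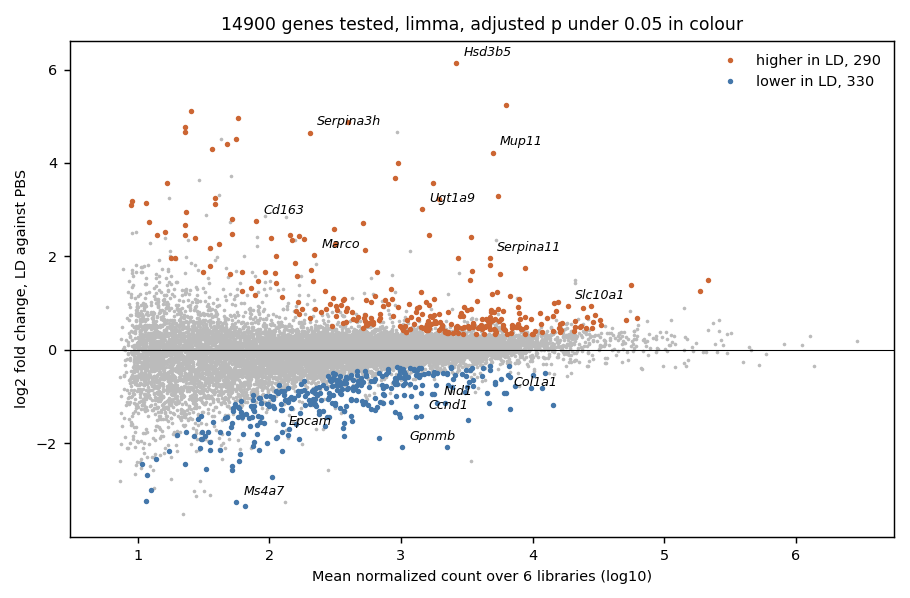
Log2 fold change of LD against PBS plotted against the mean normalized count (log10) for 14900 genes; coloured points passed the adjusted p of 0.05 in limma. The 290 higher genes reach up to 6.13 for Hsd3b5, and the 330 lower genes include Ms4a7 at -3.26.

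Among macrophage genes, those known from lipid-associated macrophages of injured liver were lower in LD, while 2 markers of resident macrophages, Cd163 and Marco, were higher. Of 16 lipid-associated macrophage markers tested, 8 were lower and none was higher, with a median log2 fold change of -0.83. The summed level of this list was 1164577 to 1292290 in PBS and 1332781 to 1602018 in LD, nearly all of it Apoe, which hepatocytes also express and which did not pass (log2 fold change 0.30 ± 0.22, SE). No member was at 0 in any library.

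Gpnmb, a transmembrane glycoprotein of lysosome-rich macrophages (chromosome 6, 49036546 to 49070929, plus strand), was at 1274, 1414 and 2321 in PBS and at 396.7, 367.8 and 382 in LD. It fell by 2.07 on the log2 scale (SE 0.20, adjusted p = 0.00277). Atp6v0d2, a subunit of the proton pump that acidifies lysosomes, was at 305.9, 242.5 and 300.5 in PBS and at 121.8, 129.1 and 124.2 in LD (log2 fold change -1.16 ± 0.15, adjusted p = 0.00558). In both genes the LD libraries lay close together and below every PBS library, and both calls held without any 1 of the 6 libraries.

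Trem2, the lipid-sensing receptor that names these cells, was at 235.7, 242.5 and 451.7 in PBS and at 116.5, 147.6 and 136.6 in LD (log2 fold change -1.15 ± 0.25, adjusted p = 0.037). Spp1, encoding osteopontin, was at 8797, 7610 and 11765 in PBS and at 2608, 3560 and 6135 in LD (log2 fold change -1.26 ± 0.28, adjusted p = 0.0385). Mmp12, the macrophage elastase, was at 519.5, 1193 and 1582 in PBS and at 245.6, 238.7 and 324 in LD (log2 fold change -1.89 ± 0.34, adjusted p = 0.02). The groups did not overlap in these 3 genes, nor in Cd9, Cd63 and Lgals3 (25.4% of all tested genes did not overlap), and the last 3 were lower by 0.99 to 1.12 log2 units. These 6 calls depended on which libraries were used. Only 2 of the 8 list members stayed called without LD replicate 1, LD replicate 2, PBS replicate 2 or PBS replicate 3. Without PBS replicate 1, 6 stayed called, and without LD replicate 3, 8 did. Of the 620 calls over all genes, those fits kept 216, 197, 131, 158, 337 and 591, in that order.

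Cd163, the haemoglobin-haptoglobin scavenger receptor (chromosome 6, 124304656 to 124330527, plus strand), was at 17.05, 16.23 and 25.5 in PBS and at 181.6, 109.6 and 126.3 in LD. It rose by a log2 fold change of 2.76 ± 0.29 (SE, adjusted p = 0.00293), in all 6 fits that left out 1 library. Marco, a scavenger receptor for particles and bacteria, was at 63.18, 73.01 and 107.5 in PBS and at 493.3, 179 and 394.4 in LD (log2 fold change 2.03 ± 0.36, adjusted p = 0.0174), and its call was lost without LD replicate 1, PBS replicate 1 or PBS replicate 2. These were the only 2 of 14 resident Kupffer cell markers that passed, and the list's median was -0.07. Clec4f, a lectin made by Kupffer cells, was at 1999, 2185 and 2623 in PBS and at 2572, 1916 and 2110 in LD, with overlapping groups. Timd4, a receptor for dead cells, ranged from 71.21 to 151.4 in PBS and from 84.63 to 191 in LD. In the libraries labelled WT and KO, Marco averaged 404 and 14120, a log2 difference of 5.15 ± 0.33 (SE, adjusted p = 0.0017) in a table where 3.72% of 15827 genes passed.

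Of 16 monocyte and recruited macrophage markers, 3 were lower and none was higher, with a median of -0.40. Cx3cr1, the fractalkine receptor, was at 357, 402.9 and 371.6 in PBS and at 169, 191 and 185.3 in LD (log2 fold change -1.05 ± 0.13, adjusted p = 0.00428), and held in every leave-one-out fit. Ccr2, the receptor that draws monocytes out of blood, was at 257.7, 234.4 and 269.6 in PBS and at 152.2, 131.3 and 118 in LD (log2 fold change -0.92 ± 0.16, adjusted p = 0.0147). Lyz2, the lysozyme of myeloid cells, was lower by 0.69 log2 units (adjusted p = 0.0449). Without LD replicate 2, PBS replicate 2 or PBS replicate 3 only 1 of the 3 stayed called, and without LD replicate 1, 2 did. The summed level of the 16 genes was 11539 to 16643 in PBS and 9134 to 11471 in LD. In bulk liver, fewer cells of a type and less RNA per cell cannot be told apart, here and for each cell type below.

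The other tested genes of the MS4A cluster on chromosome 19 did not pass. None of 10 was called by limma, edgeR or DESeq2, 2 had an unadjusted p under 0.05, and their median was -0.27. That level was reached by 2927 of all 14900 tested genes with 0.5 added to the counts in place of 1. Ms4a6d, also a gene of macrophages, was at 128.4, 127.1 and 163.9 in PBS and at 108.1, 103.1 and 101.4 in LD (log2 fold change -0.41 ± 0.18, adjusted p = 0.238). Ms4a4a was at 30.09, 18.03 and 27.32 in PBS and at 12.6, 4.34 and 13.46 in LD (log2 fold change -1.33 ± 0.50, adjusted p = 0.184). The groups did not overlap in these 2 genes, as in 25.4% of all tested genes. Members of this family share sequence, and reads could have been split between Ms4a6b, Ms4a6c and Ms4a6d.

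**Figure D3:**
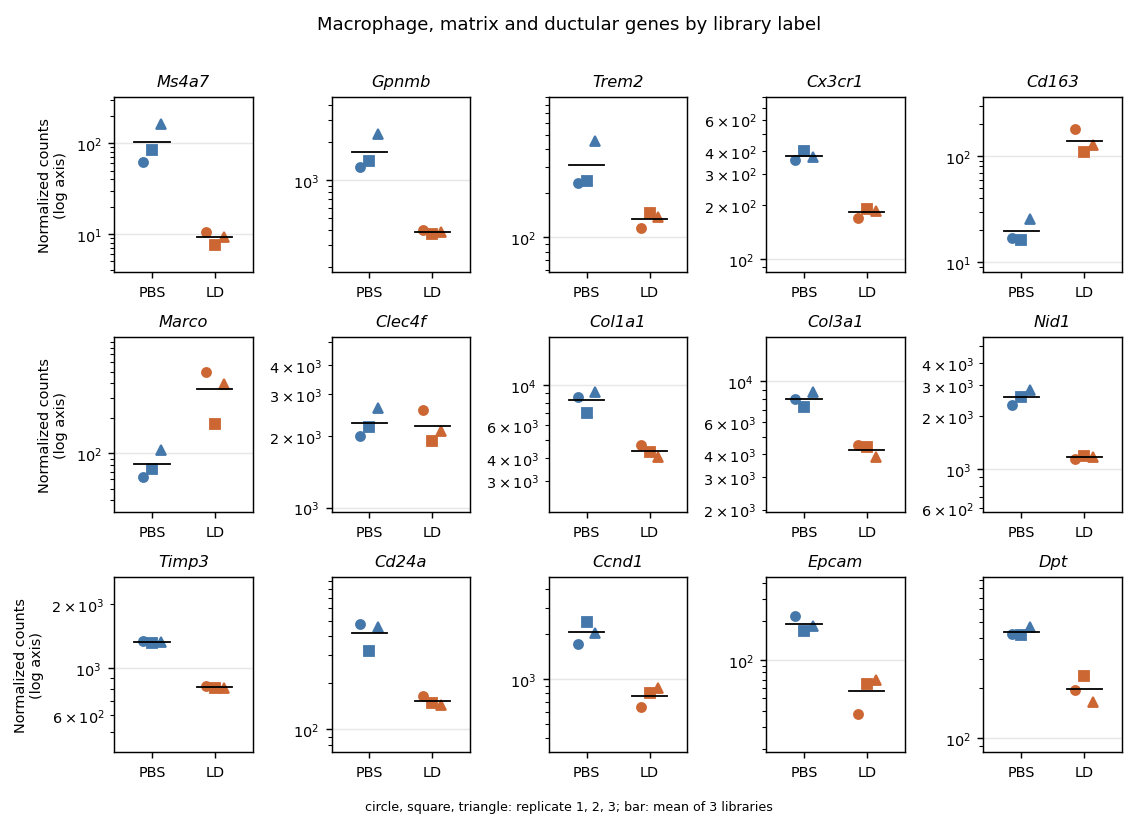
Normalized counts (log axis) of macrophage, matrix, stellate, ductular and cell cycle genes in the PBS and LD libraries; circles, squares and triangles are replicates 1, 2 and 3 and bars are means. The groups do not overlap in any gene shown except Clec4f, and only Cd163 and Marco are higher in LD.

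Among inflammatory genes, the inflammasome and the chemokine lists had 1 called gene each, a share near the 4.16% of all tested genes. Of 16 genes of the NLRP3 inflammasome and interleukin 1, the route by which macrophages release interleukin 1 beta, only Il1rap, a co-receptor for interleukin 1, passed (6.25%). It was at 4017, 3569 and 3248 in PBS and at 5244, 5740 and 4554 in LD (log2 fold change 0.52 ± 0.11, adjusted p = 0.0365), and the call was kept only without LD replicate 3 or without PBS replicate 1. Nlrp3 itself was at 51.15, 66.7 and 75.59 in PBS and at 55.63, 49.91 and 20.7 in LD, and Il1b was at 33.1, 50.48 and 53.73 in PBS and at 61.93, 54.25 and 126.3 in LD, and neither passed. Of 19 chemokine and cytokine genes tested, only Cxcl1, an attractant of neutrophils, passed, with 359, 307.4 and 292.3 in PBS and 152.2, 209.4 and 209.1 in LD (adjusted p = 0.0403), and only without LD replicate 3 was it kept. That 1 call is 5.26% of the list, while without LD replicate 3, 5 of its genes were lower, and DESeq2 called 4 lower and 1 higher. Ccl2, the ligand of Ccr2, was at 192.6, 205.5 and 236.8 in PBS and at 109.2, 146.5 and 131.5 in LD and missed the threshold (adjusted p = 0.0529).

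Of 20 acute phase genes, 3 (15.0%) were lower and none was higher, and with quantile normalization 6 were lower. Lcn2, which binds bacterial iron carriers and is also a neutrophil marker, was at 10407, 7242 and 10559 in PBS and at 5437, 5389 and 5480 in LD (log2 fold change -0.77 ± 0.14, adjusted p = 0.0187). Saa2, a serum amyloid, and Orm2, a plasma glycoprotein, were lower by 0.90 and 0.77 log2 units. None of the 3 calls was kept without LD replicate 1, LD replicate 2, PBS replicate 1 or PBS replicate 3. No interferon-stimulated gene of 20 passed in limma, edgeR or DESeq2, and 1 had an unadjusted p under 0.05.

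Among lymphocyte genes, Cd4 was at 56.16, 39.66 and 30.96 in PBS and at 281.3, 171.4 and 97.31 in LD (log2 fold change 2.0 ± 0.38, adjusted p = 0.0229). It was the only 1 of 13 T and NK cell markers tested to pass (7.69%), a share near the 4.16% of all tested genes. The Cd4 call was kept only without LD replicate 3 or without PBS replicate 1. Cd3e, a chain of the T cell receptor complex, was at 23.07, 18.93 and 21.86 in PBS and at 61.93, 37.98 and 45.55 in LD and did not pass (adjusted p = 0.0789). The whole list summed to 313.9 to 365.2 in PBS and 425.5 to 753.6 in LD. No B and plasma cell marker of 9, and no dendritic cell or MHC class II gene of 15, passed in limma or edgeR. At an unadjusted p under 0.05 stood 0 and 5 of them, and DESeq2 called 0 and 3.

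Matrix genes, among them the fibrillar collagens of scars, were lower in LD. Of 19 collagen genes, 10 were lower and 1 was higher, with a median of -0.52. Of 23 other matrix and crosslinking genes, 10 were lower and none was higher, with a median of -0.69. Of 20 proteases and inhibitors tested, 7 were lower and none was higher, with a median of -0.75.

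Col1a1, a chain of the fibrillar collagen of scars (chromosome 11, 94936224 to 94953042, plus strand), was at 8566, 6996 and 9127 in PBS and at 4686, 4276 and 4044 in LD. Its log2 fold change was -0.92 ± 0.11 (adjusted p = 0.00428). Col3a1, another fibrillar chain, was at 7991, 7269 and 8717 in PBS and at 4472, 4368 and 3879 in LD (log2 fold change -0.91 ± 0.10, adjusted p = 0.00293). Col6a3, a beaded-filament collagen, was at 1568, 1722 and 2099 in PBS and at 798.7, 939.6 and 623.2 in LD (log2 fold change -1.20 ± 0.16, adjusted p = 0.00587). In each of these genes the LD libraries lay below every PBS library. Col27a1 went the other way, with 986.9, 1267 and 1096 in PBS and 2379, 2332 and 1799 in LD (log2 fold change 0.95 ± 0.13, adjusted p = 0.00709). Col1a1, Col1a2, Col3a1, Col6a3 and Col27a1 held in all 6 leave-one-out fits. Of the 11 calls, 6 were kept without LD replicate 1, 8 without LD replicate 2, 11 without LD replicate 3, 9 without PBS replicate 1, and 5 without PBS replicate 2 or without PBS replicate 3. The summed level of all collagens overlapped between groups, at 76236 to 85443 in PBS and 74429 to 80233 in LD. Col18a1, which hepatocytes make, was the largest part of it, at 40184, 38320 and 41937 in PBS and 47052, 51717 and 48612 in LD, and did not pass (log2 fold change 0.29 ± 0.09, adjusted p = 0.123).

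Nid1, a basement membrane linker (chromosome 13, 13437551 to 13512269, plus strand), had the smallest adjusted p of the lower genes. It was at 2309, 2569 and 2827 in PBS and at 1145, 1194 and 1176 in LD (log2 fold change -1.13 ± 0.09, adjusted p = 0.00162). Sparc, a collagen-binding matrix protein, was at 6841, 6261 and 6247 in PBS and at 4169, 3803 and 3734 in LD (log2 fold change -0.73 ± 0.08). Lum, a proteoglycan of collagen fibrils, was at 859.5, 926.6 and 1164 in PBS and at 465, 555.5 and 471 in LD (log2 fold change -0.98 ± 0.14). These 3 of the 10 calls held in every leave-one-out fit. Without LD replicate 1, LD replicate 2, LD replicate 3, PBS replicate 1, PBS replicate 2 and PBS replicate 3 the numbers kept were 6, 5, 10, 8, 3 and 4 in that order. Fn1, a fibronectin that hepatocytes secrete, did not pass (log2 fold change 0.08 ± 0.11).

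Timp3, an inhibitor of matrix proteases bound to the matrix, was at 1344, 1322 and 1325 in PBS and at 829.2, 805.1 and 806.4 in LD. Each group lay within a narrow range, with the LD libraries below every PBS library, and it fell by 0.71 on the log2 scale (SE 0.08, adjusted p = 0.00377). It was the only 1 of the 7 called proteases and inhibitors that held in every leave-one-out fit. The other calls, which included Mmp2, a gelatinase, and Mmp14, a membrane-bound protease, were all lost without PBS replicate 2 or without PBS replicate 3, and without LD replicate 1 or LD replicate 2 only 2 of the 7 were kept. Timp1, the inhibitor often read as a sign of fibrosis, was at 181.5, 173.1 and 246.8 in PBS and at 97.61, 104.2 and 41.41 in LD and missed the threshold (adjusted p = 0.0551).

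Stellate cells are the main makers of this matrix in the liver. Of 18 stellate cell and contractile genes tested, 5 were lower and none was higher, with a median of -0.39 and a summed level of 16861 to 19008 in PBS and 14198 to 15072 in LD. No member was at 0 in any library, and the part of this difference in the matrix results was not tested. Dpt, a fibroblast matrix protein, was at 422.2, 420.9 and 467.2 in PBS and at 196.3, 236.5 and 164.6 in LD (log2 fold change -1.14 ± 0.15, adjusted p = 0.00587). It was the only 1 of the 5 calls kept without LD replicate 1, LD replicate 2, PBS replicate 2 or PBS replicate 3. Lrat, which stores vitamin A in quiescent stellate cells, was at 668.9, 679.6 and 828.8 in PBS and at 483.9, 848.5 and 598.3 in LD. Acta2, the actin of activated stellate cells, was at 356, 523.7 and 410.7 in PBS and at 344.3, 324.4 and 302.3 in LD. Neither gene passed, with adjusted p-values of 0.61 and 0.202. Of 19 TGF-beta and PDGF ligands and receptors, only Tgfb2 passed, as lower (log2 fold change -1.03 ± 0.24, adjusted p = 0.0483). That is 5.26% of the list, near the 4.16% of all tested genes. The Tgfb2 call was kept only without LD replicate 3, when 4 of the list were lower. Of the 19 estimates 17 were below 0 and 2 above, with a median of -0.36. An unadjusted p under 0.05 was reached by 10, edgeR called none and DESeq2 called 5 lower. Tgfb1 had a log2 fold change of 0.00 ± 0.13. Of 18 sinusoidal endothelial genes none passed in limma or edgeR, 1 had an unadjusted p under 0.05 and DESeq2 called 1 lower, and their median was 0.00.

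Cholangiocyte and ductular genes had the lowest median of all lists with 3 or more called members, at -1.13. Of 19 tested, 7 were lower and none was higher, and 18 of the 19 had an estimate below 0. Epcam, the adhesion molecule of bile duct epithelium (chromosome 17, 87635979 to 87651129, plus strand), was at 222.6, 168.6 and 184 in PBS and at 37.79, 65.1 and 69.36 in LD. It fell by 1.76 on the log2 scale (SE 0.26, adjusted p = 0.00889). Cd24a, a surface glycoprotein of ductular and other progenitor cells, was at 475.4, 320.9 and 454.5 in PBS and at 164.8, 148.6 and 142.9 in LD (log2 fold change -1.43 ± 0.17, adjusted p = 0.00428). Sox4, a transcription factor of bile duct development, was at 399.2, 467.8 and 434.4 in PBS and at 140.6, 184.5 and 267.1 in LD (log2 fold change -1.18 ± 0.21, adjusted p = 0.02).

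Krt19, the classical duct keratin, was at 197.6, 151.4 and 153 in PBS and at 80.82, 84.63 and 107.7 in LD (log2 fold change -0.87 ± 0.19, adjusted p = 0.0413). Sox9, which marks ducts and reactive hepatocytes, was at 1199, 1152 and 806.9 in PBS and at 773.6, 723.7 and 456.5 in LD and did not pass (adjusted p = 0.108). Of the 7 calls, 3 were kept without LD replicate 1, LD replicate 2 or PBS replicate 1, 2 (Epcam and Cd24a) without PBS replicate 2 or PBS replicate 3, and 7 without LD replicate 3, when 11 genes of the list were lower. With quantile normalization 3 were lower. The summed level of the 20 listed genes was 38114 to 46715 in PBS and 26234 to 37521 in LD, most of it Krt8 and Krt18, which hepatocytes also express.

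Cell cycle genes were lower in LD in part. Of 30 tested, 8 were lower and none was higher, with a median of -0.82. Estimates were below 0 for 27 and above 0 for 3, and 15 had an unadjusted p under 0.05. Ccnd1, the cyclin that starts the cycle in hepatocytes (chromosome 7, 144929931 to 144939925, minus strand), was at 1725, 2420 and 2049 in PBS and at 645.5, 800.7 and 872.7 in LD. Its log2 fold change was -1.41 ± 0.15 (adjusted p = 0.00293), and it held in every leave-one-out fit. Plk1, the mitotic kinase, was at 130.4, 144.2 and 128.4 in PBS and at 62.98, 55.34 and 61.08 in LD (log2 fold change -1.15 ± 0.18, adjusted p = 0.012). Ccnb1, the mitotic cyclin, was at 83.24, 73.01 and 70.13 in PBS and at 33.59, 28.21 and 32.09 in LD (log2 fold change -1.24 ± 0.24, adjusted p = 0.0233). Cenpf, a protein of the kinetochore, was at 68.2, 62.2 and 75.59 in PBS and at 15.74, 7.595 and 25.88 in LD (log2 fold change -2.15 ± 0.42, adjusted p = 0.0255). Pcna and Mcm7, which load and run the replication fork, did not pass, with log2 fold changes of -0.01 ± 0.10 and 0.01 ± 0.11. They are only part of the replication genes on the list. Of the 8 calls, 4, 5, 7, 4, 1 and 1 were kept without LD replicate 1, LD replicate 2, LD replicate 3, PBS replicate 1, PBS replicate 2 and PBS replicate 3, in that order.

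Promoters of mitotic genes are known for CCAAT boxes, which bind the factor NF-Y. The stretches shown are those of 3 mitotic genes that were lower here, read from RefSeq promoter windows (GRCm38.p6) on the strand of the gene, with each CCAAT in capitals. They come from chr7:122159381-122159434 (plus strand), chr13:100786509-100786625 (minus strand) and chr1:189688113-189688258 (minus strand).
Plk1: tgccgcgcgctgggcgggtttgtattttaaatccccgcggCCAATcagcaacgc
Ccnb1: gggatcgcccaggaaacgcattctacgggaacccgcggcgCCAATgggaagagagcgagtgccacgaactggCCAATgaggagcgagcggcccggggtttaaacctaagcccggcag
Cenpf: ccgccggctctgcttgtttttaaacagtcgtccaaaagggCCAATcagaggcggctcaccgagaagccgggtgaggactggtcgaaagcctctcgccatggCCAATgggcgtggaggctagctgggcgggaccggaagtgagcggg

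The CCAAT boxes began 14 bases before the start of Plk1, 99 and 67 bases before that of Ccnb1, and 132 and 71 bases before that of Cenpf. Counted on both strands in the 250 bases before the start, CCAAT was present in 19 of 24 cell cycle genes with a window (79.2%), in 39.9% of the tested genes with a window and in 37.5% of 27025 windowed genes. Over all called genes with a window it was present in 38.2% of those lower and in 51.7% of those higher in LD. The cell cycle element TTTGAA together with CCAAT was present in 25.0% of the 24 genes and in 5.1% of the tested genes. Of the 6 called cell cycle genes with a window, only Kif11 and Mki67 held both. TTTGAA was not found in the windows of Plk1, Ccnb1 and Cenpf. A match of letters is a description and not a binding site.

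Targets of p53, the transcription factor of DNA damage and cell stress, were lower where they passed. Of 18 tested, 6 were lower and none was higher, with a median of -0.43. Cdkn1a, the cell cycle inhibitor p21, was at 2111, 1999 and 1539 in PBS and at 928.9, 887.5 and 403.7 in LD (log2 fold change -1.43 ± 0.28, adjusted p = 0.0278). Eda2r, a receptor of the TNF family, was at 88.26, 93.74 and 90.16 in PBS and at 34.64, 35.81 and 28.99 in LD (log2 fold change -1.43 ± 0.22, adjusted p = 0.0114). Plk2, a stress kinase, was at 549.6, 605.7 and 694 in PBS and at 329.6, 258.2 and 290.9 in LD (log2 fold change -1.07 ± 0.14, adjusted p = 0.00536). Mdm2, the ligase that limits p53, did not pass and had a log2 fold change of -0.09 ± 0.08. Plk2 held in every leave-one-out fit, and only 1 of the 6 calls was kept without PBS replicate 2 or without PBS replicate 3. Gdf15, a stress-induced hormone on this list, was lower by 0.75 log2 units (adjusted p = 0.033), a call lost in 4 of the 6 leave-one-out fits. Of 18 unfolded protein and integrated stress genes, 1 was lower (5.56%), 13 had estimates above 0 and the median was 0.15. The call was Fgf21, a hormone of the fasted and stressed liver (log2 fold change -1.04 ± 0.20, adjusted p = 0.0251), also lost in 4 of the 6 fits.

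Epidermal growth factor and its relatives act on hepatocytes through receptors of the ERBB family. Of 11 genes of this family tested, 2 were higher, 1 was lower and 8 did not pass, with estimates from -2.11 for Erbb4 to 1.77 for Egf. Neither Erbb4 nor Egf passed, and Egf was at 0 in at least 1 library. Egfr, the receptor, was at 3467, 3874 and 4045 in PBS and at 8764, 7443 and 5178 in LD (log2 fold change 0.88 ± 0.17, adjusted p = 0.0248). Errfi1, its feedback inhibitor, was higher by 0.71 ± 0.12 log2 units (adjusted p = 0.0149). Nrg1, a ligand of ERBB3 and ERBB4, was at 532.5, 704.9 and 624.8 in PBS and at 158.5, 168.2 and 365.4 in LD (log2 fold change -1.53 ± 0.29, adjusted p = 0.0228). None of the 3 calls was kept without LD replicate 1, LD replicate 2 or PBS replicate 2.

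Male-biased hepatocyte genes were higher in LD and held the highest fold of the comparison. Of 18 male-biased genes tested, 10 were higher and 1 was lower, with a median of 1.32. Hsd3b5, a steroid dehydrogenase of male liver (chromosome 3, 98618634 to 98630252, minus strand), was at 100.3, 43.27 and 63.75 in PBS and at 5827, 7356 and 2342 in LD. Its log2 fold change was 6.13 ± 0.41 (adjusted p = 0.000388), with LD replicate 3 the lowest of the LD libraries and still above every PBS library. Cyp2d9, a male-specific cytochrome P450, was at 38404, 28856 and 26886 in PBS and at 84616, 88151 and 71611 in LD (log2 fold change 1.39 ± 0.15, adjusted p = 0.00296). Cyp7b1, which hydroxylates oxysterols, was at 2402, 1484 and 1415 in PBS and at 5184, 5548 and 3937 in LD (log2 fold change 1.5 ± 0.20, adjusted p = 0.00587). Nudt7, a hydrolase of peroxisomal coenzyme A, was at 4768, 4524 and 5870 in PBS and at 11490, 10680 and 9737 in LD (log2 fold change 1.08 ± 0.11, adjusted p = 0.00293).

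Other male-biased genes spread widely within a group. Slco1a1, an organic anion transporter, was at 1502, 1146 and 589.2 in PBS and at 6671, 7121 and 3277 in LD (log2 fold change 2.42 ± 0.36, adjusted p = 0.00947). Elovl3, an elongase under both sex and clock control, was at 7083, 4420 and 1930 in PBS and at 16968, 12814 and 2790 in LD, and did not pass (adjusted p = 0.392). Cyp4a12a, a fatty acid hydroxylase, was at 27110, 11375 and 3071 in PBS and at 28589, 23358 and 32498 in LD and did not pass (adjusted p = 0.218). In both genes the groups overlapped and PBS replicate 3 was the lowest PBS library. Serpina12, or vaspin, was the member that was lower (log2 fold change -0.59 ± 0.13, adjusted p = 0.037). Hsd3b5, Cyp2d9, Cyp7b1, Gstp1 and Nudt7 held in all 6 leave-one-out fits, and 6, 7, 10, 8, 5 and 7 of the 11 calls were kept without LD replicate 1, LD replicate 2, LD replicate 3, PBS replicate 1, PBS replicate 2 and PBS replicate 3, in that order.

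Female-biased genes did not pass. None of 15 tested was called by limma or edgeR. Limma called 4.16% of all tested genes, so 0 calls do not set a list this short apart. An unadjusted p under 0.05 was reached by 5, and DESeq2 called 2 lower. Of the 15, 4 were lower without LD replicate 3, and 4 with the replicate number as a block. Cyp2a4, a steroid hydroxylase, was at 198.6, 302 and 300.5 in PBS and at 30.44, 48.83 and 176 in LD (log2 fold change -2.01 ± 0.53, adjusted p = 0.0727). Cux2, a transcription factor of female liver, was at 26.08, 12.62 and 26.41 in PBS and at 8.397, 21.7 and 10.35 in LD.

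The major urinary proteins, pheromone carriers that liver secretes, were higher as well. Of 18 Mup genes tested, 13 were higher and none was lower, with a median of 2.38. Mup3, the most abundant of those called, was at 134363, 96468 and 100772 in PBS and at 272962, 310351 and 207512 in LD (log2 fold change 1.25 ± 0.19, adjusted p = 0.0102). Mup11 was at 633.8, 324.5 and 528.2 in PBS and at 9591, 13286 and 5597 in LD (log2 fold change 4.22 ± 0.31, adjusted p = 0.000742). Mup20, the male aggression pheromone darcin, was at 99048, 77293 and 127944 in PBS and at 113972, 93719 and 97534 in LD. Its groups overlapped, and its log2 fold change was 0.03 ± 0.18 (adjusted p = 0.955). The genes of the central Mup cluster are near-identical, so that reads could have been split among them and values of single members are uncertain. Without PBS replicate 2, 8 of the 13 calls were kept, without LD replicate 1, LD replicate 2 or PBS replicate 3, 9 were, and without PBS replicate 1 or LD replicate 3, 12 and 13 were.

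Growth hormone acts on hepatocytes through its receptor, STAT5 and insulin-like growth factor. Of 21 genes of this pathway tested, 2 were higher and none was lower. Igfals, which stabilises insulin-like growth factor in blood, was at 2384, 1840 and 2679 in PBS and at 4054, 4149 and 4122 in LD (log2 fold change 0.85 ± 0.13, adjusted p = 0.00947), and held in every leave-one-out fit. Igf1 was at 13711, 13668 and 15234 in PBS and at 18495, 19406 and 17339 in LD (log2 fold change 0.37 ± 0.09, adjusted p = 0.0483), and was kept only without LD replicate 3. Ghr, the growth hormone receptor, was higher in each LD library than in each PBS library but missed the threshold (log2 fold change 0.44 ± 0.12, adjusted p = 0.0722). Stat5b, the transcription factor that carries the signal, had a log2 fold change of -0.02 ± 0.09. The direct targets Cish and Socs2, which feed back on the receptor, overlapped between groups and did not pass (adjusted p = 0.204 and 0.464).

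**Figure D4:**
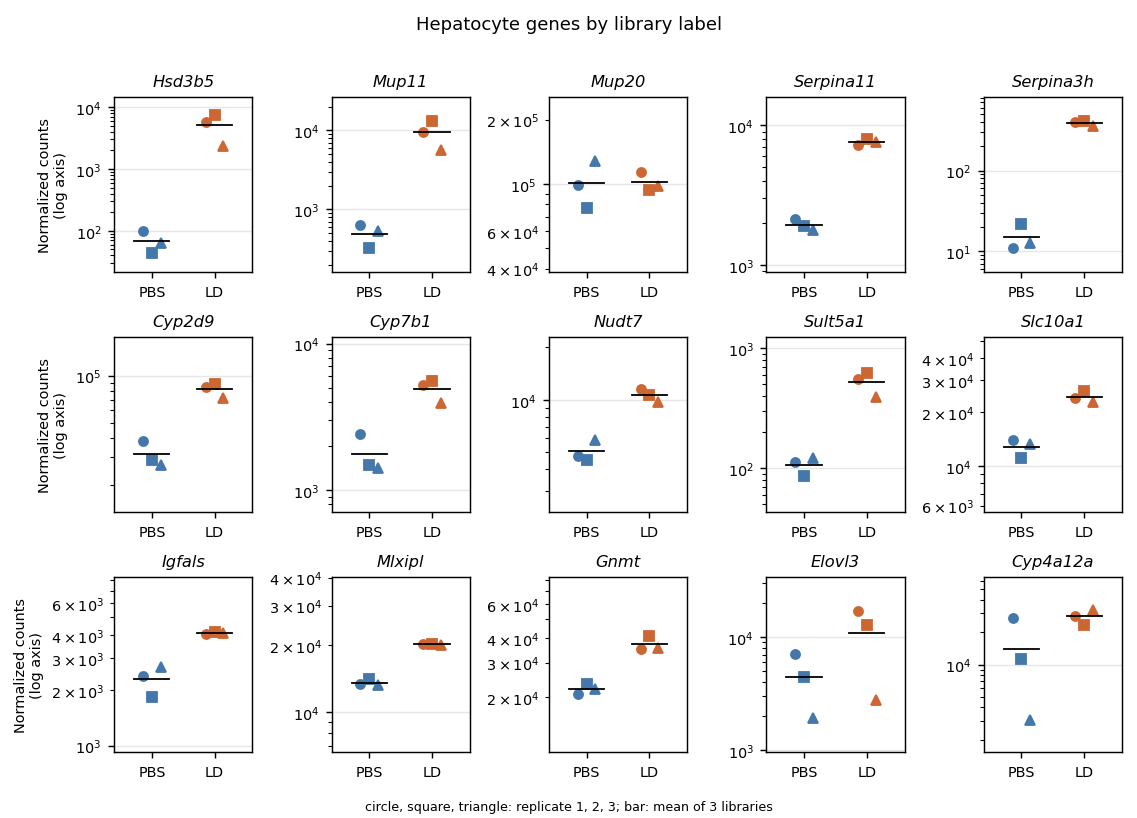
Normalized counts (log axis) of hepatocyte genes in the PBS and LD libraries; circles, squares and triangles are replicates 1, 2 and 3 and bars are means. Mup20, Elovl3 and Cyp4a12a overlap between groups, and the other genes shown are higher in each LD library than in each PBS library.

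Serpins of the A clade, plasma protease inhibitors encoded in a cluster on chromosome 12, gave the smallest adjusted p values outside unnamed gene models. Serpina11, a plasma serpin (chromosome 12, 103980243 to 103989957, minus strand), was at 2145, 1900 and 1784 in PBS and at 7165, 7968 and 7628 in LD. Its log2 fold change was 1.97 ± 0.09 (adjusted p = 2.88e-05). Serpina3h was at 11.03, 21.63 and 12.75 in PBS and at 399.9, 411.2 and 357.1 in LD (log2 fold change 4.65 ± 0.26, adjusted p = 0.000114). Serpina3k, an abundant member of the same subfamily, was at 109154, 99599 and 121299 in PBS and at 380219, 365188 and 214603 in LD (log2 fold change 1.5 ± 0.22, adjusted p = 0.00889). Members of the Serpina3 subfamily are close in sequence, and reads could have been split between them. Serpina1a, an alpha-1 antitrypsin, was not called (log2 fold change -0.04 ± 0.19). Serpina7, the thyroxine carrier, lies on the X chromosome and was lower, at 6818, 7180 and 7002 in PBS and 4958, 3997 and 4711 in LD (log2 fold change -0.63 ± 0.09, adjusted p = 0.00974). In all, 5 of 18 tested were higher and 1 was lower. Serpina11 and Serpina3h held in every leave-one-out fit, and without PBS replicate 2, 3 of the 6 calls were kept.

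STAT5, the transcription factor downstream of the growth hormone receptor, binds the letters TTCNNNGAA. The promoter of Serpina11 is shown because it was the only 1 of 3 called serpin A genes with a promoter window to hold this motif, which is in capitals (RefSeq, GRCm38.p6, chr12:103989960-103990048, minus strand).
Serpina11: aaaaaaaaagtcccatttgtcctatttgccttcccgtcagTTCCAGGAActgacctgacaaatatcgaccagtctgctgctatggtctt

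The match began 65 or 51 bases before the start, for the 2 starts listed. On both strands of those 250 bases, TTCNNNGAA was present in 8.13% of 27025 windowed genes and in 7.44% of the tested genes with a window. It was present in 0 of 13 male-biased genes and in 0 of 14 Mup genes with a window, and in 22 of 207 genes called higher (10.6%). Of 15 serpin A genes with a window, 4 held it (26.7%). These were Serpina11 and also Serpina3f, Serpina3g and Serpina3i, which were not called. No match says only that these letters are not in these bases.

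Enzymes that clear drugs and hormones were higher in part. Of 32 cytochrome P450 genes of families 1 to 3, 8 were higher and none was lower, with a median of 0.32. Cyp1a2, the caffeine-oxidising enzyme, was at 11954, 10202 and 8643 in PBS and at 21579, 20603 and 20177 in LD (log2 fold change 1.03 ± 0.12, adjusted p = 0.00371). It was the only 1 of the 8 kept without PBS replicate 2 or without PBS replicate 3, while 2, 3, 7 and 8 were kept without LD replicate 1, LD replicate 2, PBS replicate 1 and LD replicate 3. With quantile normalization 4 of the P450 genes were higher and 1 was lower. Of 20 glucuronosyl and sulfotransferase genes, 5 were higher and 1 was lower. Sult5a1, a sulfotransferase, was at 113.3, 86.53 and 121.1 in PBS and at 547.9, 618.5 and 394.4 in LD (log2 fold change 2.26 ± 0.20, adjusted p = 0.00244). Ugt1a9 was at 275.8, 317.3 and 251.4 in PBS and at 3188, 1018 and 3568 in LD (log2 fold change 3.01 ± 0.40), while Ugt1a5 was lower at -1.27 ± 0.28. The Ugt1a genes share their last exons, so that shared reads could have been assigned to either, and Ugt1a5 was kept in only 2 of 6 leave-one-out fits.

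Glutathione transferases went both ways. Gstp1, a male-biased transferase, was at 19088, 19274 and 18864 in PBS and at 39238, 39139 and 32056 in LD (log2 fold change 0.94 ± 0.10, adjusted p = 0.00296). Gstm3 was at 20229, 21037 and 17685 in PBS and at 8218, 6931 and 11465 in LD (log2 fold change -1.18 ± 0.17, adjusted p = 0.00751). Gsta1, Gsta2 and Nqo1, the last a quinone reductase induced by oxidative stress, were lower too, so that 4 of 22 genes of this list were lower and 1 was higher. The list had 7 lower genes without LD replicate 3. Gstp1 alone held in every leave-one-out fit, and 3, 2, 5, 3, 1 and 2 of the 5 calls were kept without LD replicate 1, LD replicate 2, LD replicate 3, PBS replicate 1, PBS replicate 2 and PBS replicate 3, in that order. With quantile normalization 8 of the list were lower.

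Of 24 bile acid genes 1 was higher and 2 were lower. Without LD replicate 3, 7 were higher and 2 lower, and DESeq2 called 5 higher and 2 lower. Slc10a1, the uptake transporter NTCP (chromosome 12, 80953183 to 80968705, minus strand), was at 13890, 11033 and 13297 in PBS and at 23906, 26263 and 22821 in LD (log2 fold change 0.94 ± 0.11, adjusted p = 0.00377), and held in every leave-one-out fit. Abcc4, an efflux pump of the blood side, was at 208.6, 186.6 and 240.4 in PBS and at 53.53, 39.06 and 98.34 in LD (log2 fold change -1.82 ± 0.31, adjusted p = 0.0153). Cyp39a1, an oxysterol hydroxylase, was lower by 1.04 ± 0.18 log2 units. Without PBS replicate 2 or PBS replicate 3 only Slc10a1 was kept, and without LD replicate 1, 2 of the 3 were. Cyp7a1, the rate-limiting enzyme of bile acid synthesis, was at 2686, 1563 and 2490 in PBS and at 3072, 2088 and 1855 in LD, with overlapping groups (adjusted p = 0.918).

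Genes for the storage and burning of fat gave no calls with all 6 libraries, against 4.16% of all tested genes. Of 22 genes for lipid droplet proteins and lipolysis none passed in limma or edgeR, 7 had an unadjusted p under 0.05, and DESeq2 called 2 lower. Plin2, the main droplet coat protein of hepatocytes, was at 39044, 37835 and 39146 in PBS and at 27987, 30438 and 37252 in LD (log2 fold change -0.29 ± 0.12, adjusted p = 0.211). Plin4, another coat protein, was at 4508, 3566 and 4485 in PBS and at 2631, 2855 and 3360 in LD (log2 fold change -0.50 ± 0.12, adjusted p = 0.0557). The groups did not overlap in either, as in 25.4% of all tested genes. Cidec, which fuses droplets, overlapped between groups (adjusted p = 0.184). Without LD replicate 3, 6 of the 22 genes passed as lower, and with quantile normalization 2 did. Of 29 genes of fatty acid oxidation and PPARA targets none passed in limma or edgeR, 6 had an unadjusted p under 0.05, and DESeq2 called 1 lower. Of the 29, 3 were lower without LD replicate 3. Cpt1a, the gate of mitochondrial oxidation, had a log2 fold change of -0.03 ± 0.12, and Cyp4a14, a PPARA target, was at 7749, 3546 and 3815 in PBS and at 437.7, 366.7 and 4636 in LD.

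Of 24 fatty acid synthesis genes 5 were higher and 2 were lower, with a median of -0.01. Mlxipl, encoding the carbohydrate-response factor ChREBP (chromosome 5, 135089890 to 135138382, plus strand), was at 13311, 14105 and 13185 in PBS and at 20121, 20074 and 20016 in LD (log2 fold change 0.57 ± 0.08, adjusted p = 0.00587). Srebf1, its insulin-driven counterpart, was at 25691, 28707 and 21846 in PBS and at 44266, 39643 and 35256 in LD (log2 fold change 0.65 ± 0.13, adjusted p = 0.0264). Thrsp, a target of both, was at 9527, 10517 and 8410 in PBS and at 17702, 14936 and 26056 in LD (log2 fold change 1.01 ± 0.18, adjusted p = 0.02). Fasn, fatty acid synthase, overlapped between groups (adjusted p = 0.482), and Scd1, the main liver desaturase, was at 1445081, 1671215 and 1502000 in PBS and 1320633, 1054049 and 1280432 in LD (adjusted p = 0.463). Scd2, the desaturase of other tissues, was lower by 1.11 ± 0.23 log2 units (adjusted p = 0.0294). Mlxipl alone held in every leave-one-out fit, and was the only 1 of the 7 calls kept without PBS replicate 2 or without PBS replicate 3. With quantile normalization 1 of the 5 higher calls was left.

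Genes of amino acid breakdown had small positive estimates. All 30 genes of the urea cycle and amino acid breakdown had estimates above 0, with a median of 0.33, and 6 were higher by test. Gnmt, a glycine methyltransferase, was at 20827, 23236 and 22053 in PBS and at 35197, 41198 and 35496 in LD (log2 fold change 0.76 ± 0.10, adjusted p = 0.00558). Prodh, the proline oxidase, was at 3630, 3560 and 3886 in PBS and at 6136, 6085 and 7149 in LD (log2 fold change 0.80 ± 0.09, adjusted p = 0.00359). Asl, of the urea cycle, and Hpd, of tyrosine breakdown, were both higher by 0.67 log2 units (SE 0.09 and 0.12). Gnmt and Prodh held in every leave-one-out fit, 3 of the 6 calls were kept without LD replicate 1, LD replicate 2 or PBS replicate 3, 2 without PBS replicate 2, 4 without PBS replicate 1 and 6 without LD replicate 3. The number of the 30 genes called higher was 17 without LD replicate 3 and 14 in DESeq2. Of 31 complement and coagulation genes 4 were higher and none was lower, with a median of 0.23, and none of these 4 was kept without LD replicate 1, LD replicate 2 or PBS replicate 2. Without LD replicate 3, and also in DESeq2, 9 of them were higher.

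General hepatocyte genes set these rises in context. Of 17 plasma carrier and general hepatocyte genes none passed in limma or edgeR, 8 had an unadjusted p under 0.05, and DESeq2 called 6 higher, with a median of 0.25. Foxa2, a transcription factor of hepatocytes, was higher by 0.62 ± 0.11 log2 units (adjusted p = 0.0175), and the call was lost without LD replicate 1, LD replicate 2, PBS replicate 1 or PBS replicate 2. Lists of other cell types that moved the opposite way are given above with their sums, and their part in the hepatocyte results was not tested.

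**Figure D5:**
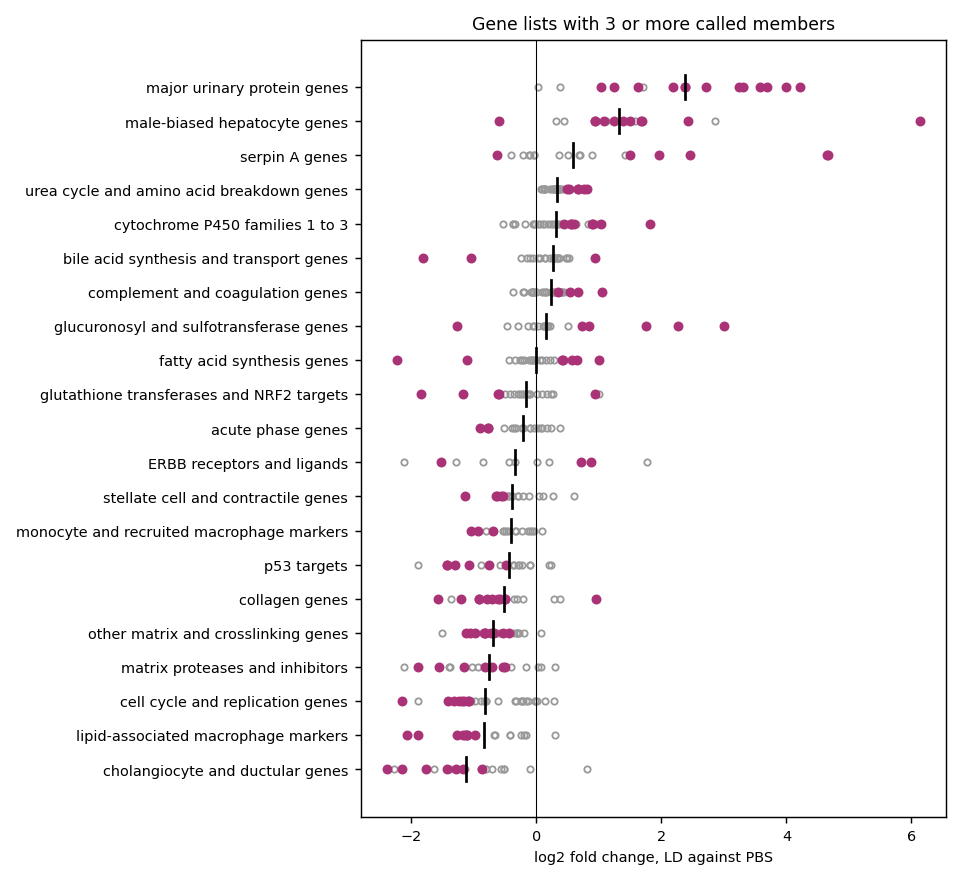
Log2 fold change of LD against PBS for the members of each gene list with 3 or more called genes; filled points passed in limma, open points did not, and black bars are list medians. Medians run from -1.13 for cholangiocyte and ductular genes to 2.38 for major urinary protein genes, against 0.00 over all genes tested.

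Averaged single-nucleus profiles show where the called genes are expressed in a NASH liver. For each gene the numbered group of nuclei with its highest level was taken from the wild type column, for 13607 of the tested genes. Group 0, with the highest levels of the hepatocyte genes Cyp2e1 and Glul, and group 1, with the highest levels of Alb, Cps1 and Hal, together hold the highest level of 8 of 9 hepatocyte markers. Among 252 genes called higher in LD, 36.1% peaked in group 0 and 25.8% in group 1, against 9.09% and 7.03% of all genes. Among 321 genes called lower, 21.5% peaked in group 7, which had the highest level of 6 of 8 cholangiocyte markers, against 8.33% of all genes. A further 17.8% peaked in group 2, with the highest level of all 8 stellate markers, against 5.48% of all genes. Group 11 held 15.6% of the lower genes and 11.5% of all genes. It had the highest level of all 6 mesothelial markers and also of the cholangiocyte markers Krt7 and Krt19. Group 3, with 6 of 8 macrophage markers, held 6.23% of the lower genes and 7.06% of all genes. The nuclei come from other livers, each column pools 3 of them, and the shares are a description with no test.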

How the data were processed

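Per the submitters' processing notes, bulk reads went through FastQC, STAR and DESeq2 and nuclei through Cell Ranger and Seurat 4.0.1, on mm10. No other version, annotation or counter is named in the sources used here. The deposited bulk signal is gene counts that the authors divided by 1 size factor per library: in every library 100% of values gave whole reads (tolerance 0.01), although for PBS replicate 1, whose factor is close to 1, this check has little force. The deposited single-nucleus signal holds the authors' averages per numbered group of nuclei and genotype. The authors' own fold changes and p-values were not used.

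A gene entered the test when 3 or more of the 6 libraries reached 10 normalized counts. The values plus 1 were put on a log2 scale and compared between the labelled groups, without covariates, by limma 3.58.1 in R 4.3.3 (moderated with a mean trend, two-sided), and p-values were adjusted by Benjamini-Hochberg over all tested genes, with a threshold of 0.05. Alternatives were edgeR 4.0.16 and DESeq2 1.42.0 on the recovered reads, pseudocounts of 0.5 and 5, other filters and scalings, the replicate number as a block, and leaving out each library. On simulated data for this comparison with 14900 genes, 89% of genes changed 2-fold and 100% of those changed 4-fold were recovered, with 2 false calls. The changed genes were all raised in LD and had a mean of at least 50 reads. Counts were drawn independently, with a spread set by the mean alone. No simulated library stood apart as LD replicate 3 did, so these rates may not hold for the real libraries.

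The groups, the 51 gene lists and the named genes were chosen with earlier results of these data known. The rule named Ms4a7, the key genes of each list, up to 4 called members per list with the largest change and a mean of at least 50, and the 12 genes per direction with the smallest adjusted p and a change of at least 1 log2 unit. Further list members, such as Sox4, Timp3, Plk1, Cenpf, Mlxipl, Cyp7b1, Cyp2a4 and Plin4, and the genes Myh4, Acta1, Ctse, Ppp1r3g, Ciart, Per3 and Npas2, were named after their values were seen. Gene positions are those of the GENCODE annotation on mm10, and promoter sequences are from RefSeq (GRCm38.p6). Some list members are not reported here.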

Additional observations from a re-analysis of the deposited data

How the results depend on the processing

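The number of genes called moved with the libraries used and with the tool. Leaving out 1 library gave 135 to 1205 genes called, 73 to 546 genes called higher in LD and 62 to 659 genes called lower in LD, against 620, 290 and 330. The highest values came without LD replicate 3 and the lowest total without PBS replicate 2. The cause was not tested, beyond that these fits hold fewer samples. DESeq2 on recovered reads called 1221 genes, 555 higher and 666 lower, and kept 618 of the 620 calls, while edgeR called 603 and kept 582. The other filters, pseudocounts and scalings gave 532 to 648 genes called, and none changed the direction of a called gene. A fit with the replicate number as a replicate block called 793 genes, 365 higher and 428 lower. Where no gene of a list passed without it, this fit called 6 clock genes higher, 4 female-biased genes lower, 2 lipid droplet genes lower and 1 gene in each of 4 other lists. Same-numbered libraries correlated at 0.048, -0.0434 and 0.132 in their deviations from the group means, and LD replicate 2 correlated best with PBS replicate 1 (0.156). These correlations over all tested genes cannot exclude that same-numbered libraries share a time or order of collection, so pairing is not settled. The share of calls that were higher was 42.3% with quantile normalization and 41.7% to 60.4% with 1 library left out, highest without PBS replicate 3. Values of genes near the minimum of 10 normalized counts rest on few reads.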

Other observations

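Genes of skeletal muscle were unevenly spread over libraries. Myh4, a fast muscle myosin, was at 25.07, 0.9014 and 20.04 in PBS and at 45.13, 465.5 and 0 in LD. Acta1, skeletal muscle actin, was at 12.03, 0 and 19.13 in PBS and at 31.49, 271.3 and 0 in LD. In both genes LD replicate 2 was the highest library, and neither passed (adjusted p = 0.731 and 0.671 in limma).

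Ctse, an aspartic protease, was at 175.5, 137 and 122 in PBS and at 71.37, 72.7 and 3859 in LD, so that LD replicate 3 was above every other library and the remaining LD libraries were below every PBS library. Ppp1r3g, a glycogen-targeting subunit of protein phosphatase 1 that is induced by feeding, was at 3.009, 45.07 and 51.91 in PBS and at 5.248, 15.19 and 257.8 in LD. Both were named after their values were seen, and neither passed (adjusted p = 0.744 and 0.893 in limma).

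Several genes with small adjusted p lie outside the lists. Ndrg1, a stress-response gene, was at 720.1, 729.2 and 636.6 in PBS and at 376.8, 314.7 and 285.7 in LD (log2 fold change -1.10 ± 0.13, adjusted p = 0.00422). Ddr1, a collagen receptor kinase of epithelia, was at 391.1, 395.7 and 414.4 in PBS and at 122.8, 158.4 and 163.6 in LD (log2 fold change -1.44 ± 0.15, adjusted p = 0.00293). Slc6a8, the creatine transporter, was at 783.3, 726.5 and 844.2 in PBS and at 296, 359.1 and 384.1 in LD (log2 fold change -1.18 ± 0.13, adjusted p = 0.00296). C4a, also called sex-limited protein, a complement gene near-identical to C4b with which it could share reads, was at 981.8, 1462 and 892.5 in PBS and at 3612, 4784 and 4506 in LD (log2 fold change 1.97 ± 0.18, adjusted p = 0.00244). All 4 of these genes were called in all 6 fits that left out 1 library.

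Of 31 lysosomal genes, 24 cholesterol synthesis genes and 19 iron handling genes none passed in limma. At an unadjusted p under 0.05 stood 7, 5 and 5 of them, edgeR called 0, 0 and 1, and DESeq2 called 2, 1 and 4. Without LD replicate 3, 2, 3 and 2 of them passed.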
